A study of Mus musculus with 12 samples.

Results

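Myl10, Sdsl, Cngb1, Otos, Alcam, Nupr1 and Sult1a1 are 7 of the 22307 gene symbols counted in mouse hematopoietic stem cells (HSC). They were picked because earlier results of these data showed them high in HSC from bone marrow and low or absent in HSC from fetal liver or from the AGM, the aorta-gonad-mesonephros region of the embryo in which the first HSC arise. All 7 had rows of counts. They were chosen by their UMI levels in the 3 tissues, so the differences between tissues are described here without a test.

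Single cells labelled as HSC were sorted into 12 plates of 96 wells, of which 2 held AGM cells, 5 fetal liver cells and 5 bone marrow cells. Nuclei were removed, and the polyadenylated RNA left in the cytoplasm was sequenced with scSTRT-seq, a method that tags each RNA molecule with a unique molecular identifier (UMI). The plate titles carry origin codes. The AGM plates carry a single code. In fetal liver, and likewise in bone marrow, plates 1 to 3 carry a first code and plates 4 and 5 a second. The fetal liver codes share their first part, and the bone marrow codes do not. No label says whether a code is 1 animal or a pool. In AGM the female-specific RNA Xist had 512 UMIs and Y-linked genes 511, so this code held cells of both sexes. In fetal liver they had 820 and 1 under the first code and 1 and 1031 under the second. For bone marrow plates 4 and 5 the tissue is known from the title alone. The series concerns DARLIN, a mouse line that writes heritable barcodes into its cells, but the labels of these plates give no line, genotype, treatment, age, sex or surface markers for any group. The p-values below therefore measure only the spread between plates or summed libraries.

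The cells that passed the filters numbered 423 from bone marrow, 454 from fetal liver and 143 from AGM, with 2596681 to 15977740 UMIs per plate. The median cell held 159228 UMIs and 5513 genes in AGM, 54303 UMIs and 4117 genes in fetal liver and 59558 UMIs and 2631 genes in bone marrow. Bone marrow plate 1 stood apart, with a median of 25 UMIs per detected gene against 2 to 10 in the other plates. All 22 genes of a stem cell list (among them Hlf, Mecom and Procr) had UMIs in bone marrow, with a summed level of 2486 to 3055 CPM over the plates (UMI counts scaled to a common library size). All 22 also had UMIs in the other tissues, with sums of 3290 to 4314 CPM in fetal liver and 2527 to 2581 in AGM. Some defining genes of other cells (Ms4a1, Cd79a, Cd3d, Ly6g, Elane and Cdh5) had no UMI in bone marrow cells, while other genes of their lists did. Lists for B cells, T and NK cells, neutrophils, macrophages, erythroid cells, megakaryocytes, mast cells, endothelium, stroma and hepatocytes summed in the bone marrow plates to 61.5 to 109.4, 51.2 to 134.6, 750.8 to 1002, 15.1 to 103.4, 176.3 to 394.0, 168.8 to 391.9, 0 to 25.2, 342.1 to 539.2, 0.614 to 13.0 and 51.3 to 95.3 CPM. The neutrophil list was lower in the other tissues without overlap, at 438.6 to 618.5 CPM in fetal liver and 446.7 to 447.2 in AGM. The part of these cells in the results was not tested.

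The 7 genes have little in common as proteins. Myl10 encodes a myosin regulatory light chain of the EF-hand family that was described in precursor lymphocytes. Such chains sit on the neck of a myosin head and set how it is switched on. Sdsl encodes a relative of serine dehydratase (Sds), the liver enzyme that strips the amino group from serine and threonine. Cngb1 encodes a subunit of the cyclic nucleotide-gated channel of rod photoreceptors and olfactory neurons, and Otos encodes otospiralin, a small secreted protein known from the inner ear. Alcam (CD166) is an adhesion receptor of the immunoglobulin family that binds CD6 and itself. Nupr1 is a small chromatin-associated protein induced by cell stress, and Sult1a1 is a sulfotransferase that adds sulfate to phenols.

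In the mouse genome (GRCm38, GENCODE M21 annotation) the genes lie on 5 chromosomes. Myl10 (ENSMUSG00000005474.9) lies at chr5:136693146-136701094 on the plus strand, and Sdsl (ENSMUSG00000029596.13) on the minus strand of the same chromosome at chr5:120458186-120472810. Cngb1 lies at chr8:95239045-95306585, Otos at chr1:92644218-92648841 and Alcam at chr16:52248996-52454074, all on the minus strand. Nupr1 (chr7:126623249-126630861) and Sult1a1 (chr7:126672865-126676432) are both on the minus strand and lie 42003 bp apart. No 50-base stretch of the Myl10, Sdsl or Otos transcripts occurs in another gene, and under 1% of those of Cngb1, Alcam and Nupr1 do. For Sult1a1 6.58% also occur in Gm6939, and reads from these cannot be told apart.

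The 150 bases before the transcription start are shown for the 3 genes whose RefSeq start is also the first base of the GENCODE gene. They are read on the gene's strand, from RefSeq on GRCm38.p6. Myl10 (chr5:136692996-136693145, plus strand), Cngb1 (chr8:95306586-95306735, minus strand) and Otos (chr1:92648842-92648991, minus strand) follow. Capitals mark an ETS core (GGAAG on either strand) or an E-box (CANNTG).
Myl10: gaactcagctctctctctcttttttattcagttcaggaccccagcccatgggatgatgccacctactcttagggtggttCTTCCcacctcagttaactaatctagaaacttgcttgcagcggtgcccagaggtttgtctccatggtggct
Cngb1: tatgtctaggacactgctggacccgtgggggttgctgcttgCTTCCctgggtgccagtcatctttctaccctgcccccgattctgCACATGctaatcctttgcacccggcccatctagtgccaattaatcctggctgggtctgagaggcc
Otos: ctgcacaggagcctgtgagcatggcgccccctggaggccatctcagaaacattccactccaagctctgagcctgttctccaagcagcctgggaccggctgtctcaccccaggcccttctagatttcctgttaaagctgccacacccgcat
The ETS core occurs in 47.7% and the E-box in 47.7% of 32851 RefSeq promoters in a window of this length, and a match describes the letters only. The letters GATAA (13.3% of promoters), TGTGGT (8.40%), TGANTCA (4.24%) and TTANGTAA (1.11%), searched on both strands, were found in none of the windows of the 6 genes that the table holds. Sdsl was not in that table.

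Myl10 separated the 3 tissues without overlap. Its level, in CPM on library sizes scaled by TMM, was 837, 1038, 910.4, 279.7 and 215.4 in bone marrow plates 1 to 5. In the 5 fetal liver plates it was 21.1, 26.6, 36.5, 31.5 and 31.8 CPM, and both AGM plates held no UMI. The means were 656 ± 381 CPM (SD, n = 5) in bone marrow and 29.5 ± 5.83 CPM (SD, n = 5) in fetal liver, and all plates kept the order bone marrow, fetal liver, AGM. From summed UMIs the bone marrow level was 27.5-fold that of fetal liver. Against AGM the level was at least 7440-fold higher, taking a floor of 3 UMIs over both AGM plates, and at least 2569-fold higher without AGM plate 1, the deepest library. The AGM zero allows up to 0.123 CPM.

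Sdsl was found almost only in bone marrow cells. Its level was 248.0, 220.4, 200.3, 116.3 and 133.9 CPM in bone marrow plates 1 to 5 and 0 in both AGM plates. In fetal liver, plates 1, 2, 4 and 5 had no UMI, and plate 3 stood alone at 3.56 CPM, from 17 UMIs spread over 10 cells with at most 5 in a cell. The bone marrow mean was 184 ± 56.5 CPM (SD, n = 5), and fetal liver and AGM did not separate. The bone marrow level was 341.0-fold that of fetal liver, and without fetal liver plate 3 it was at least 1601-fold higher. Against AGM it was at least 1939-fold higher, or at least 669.8-fold without AGM plate 1.

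**Figure D1:**
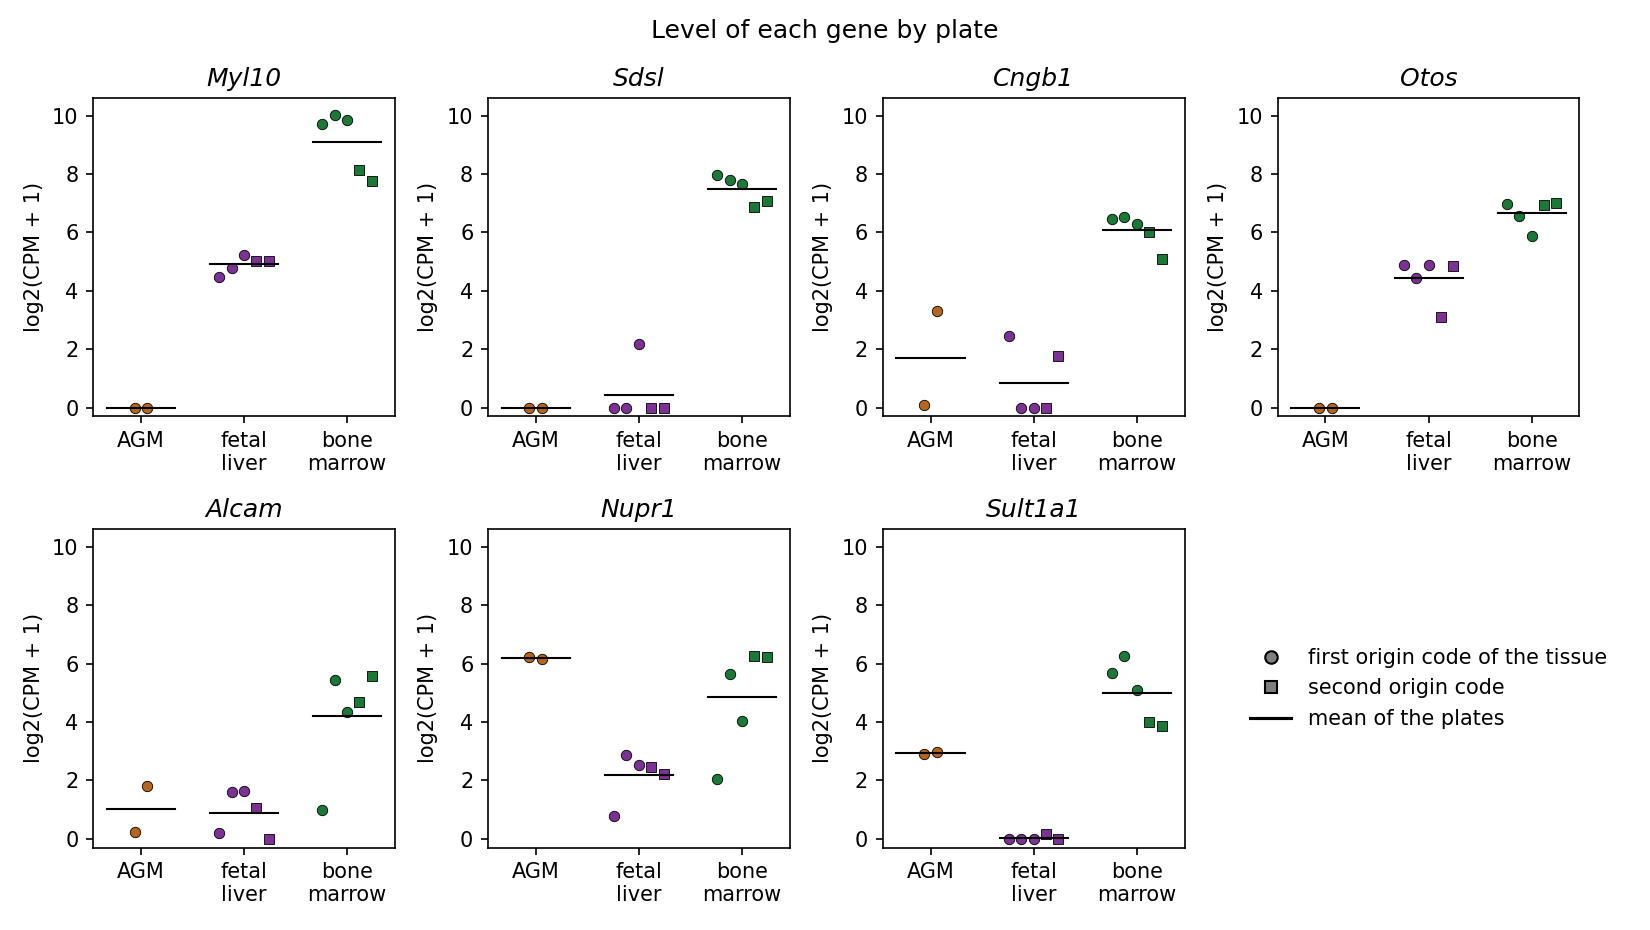
Level of each of the 7 genes in every plate, as log2(CPM + 1); circles are plates of the first origin code of a tissue, squares those of the second, and the line is the mean of the plates. Myl10, Sdsl, Cngb1, Otos and Sult1a1 lie higher in all 5 bone marrow plates than in any other plate, while Alcam and Nupr1 in bone marrow plate 1 lie among the fetal liver plates.

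Cngb1 and Otos, genes known from sense organs, were higher in every bone marrow plate than in any plate of the other tissues. Cngb1 was at 86.1, 90.9, 77.7, 64.1 and 33.2 CPM in bone marrow plates 1 to 5, at 4.44, 0, 0, 0 and 2.36 CPM in the fetal liver plates and at 0.0547 and 9.01 CPM in the AGM plates. The bone marrow mean was 70.4 ± 23.2 CPM (SD, n = 5), and AGM and fetal liver overlapped. In both of them a single cell held most of the Cngb1 molecules: 67.0% of the AGM UMIs and 64.9% of the fetal liver UMIs. The summed ratios, 58.7 against fetal liver and 24.8 against AGM, lean on those cells. Without fetal liver plate 1 the first was 235.0, and without AGM plate 1 the second was 8.66. Without AGM plate 2 a single AGM UMI was left.

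Otos was at 124.3, 93.7, 58.3, 120.4 and 126.0 CPM in bone marrow plates 1 to 5. The fetal liver plates (22.6 ± 9.005 CPM; SD, n = 5) held 28.2, 20.4, 28.5, 7.65 and 28.0 CPM and the AGM plates none, so the order was bone marrow, fetal liver, AGM with no overlap. The bone marrow mean was 104.5 ± 29.0 CPM (SD, n = 5). The ratio of 4.87 between bone marrow and fetal liver was the smallest of the 7. Against AGM Otos was at least 935.1-fold higher, or at least 322.9-fold without AGM plate 1. Other inner ear genes were at or near 0: 10 of them together reached 0.0965 to 0.916 CPM in the bone marrow plates, and Coch, Otol1, Tectb, Gjb2, Gjb6, Slc26a4 and Pou3f4 had no UMI there. Of 8 photoreceptor genes, 7 had a UMI in bone marrow, with a summed level of 4.41 to 27.01 CPM, and Pde6b had none. Their sums overlapped those in fetal liver (1.89 to 9.80 CPM) and AGM (2.19 to 5.39 CPM), where 5 genes each had a UMI.

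Sult1a1 was almost absent from fetal liver. Its level was 49.8, 74.9, 33.3, 15.1 and 13.5 CPM in bone marrow plates 1 to 5 and 6.45 and 6.94 CPM in the AGM plates. All 454 fetal liver cells held 1 UMI between them, in plate 4 (0.118 CPM). The bone marrow level was 1266-fold that of fetal liver, with a 95% counting interval of 226.8 to 50023 because of the single UMI, and 6.87-fold that of AGM. Without fetal liver plate 4 it was at least 293.1-fold higher than in fetal liver. The bone marrow mean was 37.3 ± 25.7 CPM (SD, n = 5). The tissues followed the order bone marrow, AGM, fetal liver without overlap.

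Alcam and Nupr1 did not keep the pattern in every plate. Alcam was at 0.965, 42.7, 19.1, 24.7 and 47.0 CPM in bone marrow plates 1 to 5, against 0.148, 2.06, 2.10, 1.06 and 0 CPM over the fetal liver plates and 0.164 and 2.49 CPM over the AGM plates. Its bone marrow mean was 26.9 ± 18.7 CPM (SD, n = 5). Bone marrow plate 1 thus lay within the range of the other tissues. It held 95 kept cells, with medians of 2264 genes per cell and 25 UMIs per detected gene. The other bone marrow plates had 71 to 96 kept cells, with medians of 2224 to 3317 genes and 3 to 4.5 UMIs per detected gene. Nupr1 was at 3.19, 48.6, 15.3, 75.1 and 74.3 CPM in bone marrow plates 1 to 5 and at 0.739, 6.39, 4.82, 4.47 and 3.72 CPM over the fetal liver plates. The AGM plates held 74.3 and 71.0 CPM, as high as in the highest bone marrow plates. The description as absent from AGM does not apply to Nupr1, whose summed bone marrow level was 0.406 times that of AGM and 7.65 times that of fetal liver. Without bone marrow plate 1 these ratios were 0.588 and 11.1. The Alcam ratios were 20.4 against fetal liver and 22.8 against AGM, or 14.4 without bone marrow plate 2 and 8.85 without AGM plate 1. Without AGM plate 2, where 1 cell held 23 of the 24 Alcam UMIs, 3 AGM UMIs were left. Why plate 1 was low in both genes was not tested.

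Counted over the list, 5 of the 7 genes (all but Alcam and Nupr1) had all 5 bone marrow plates above all 5 fetal liver plates, as did 3.57% of the 15472 genes tested, and the same 5 lay above both AGM plates, as did 10.9%. The rule picked the genes for this, so nothing is read from it. In one edgeR quasi-likelihood fit of all tissues, 2.68% of genes were called higher and 2.06% lower in bone marrow than in fetal liver, and 5.29% higher and 3.63% lower than in AGM.

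The number of UMIs varied widely between bone marrow cells, which are pooled here over the 5 plates and not thinned. Plates differed too: the share of cells with at least 10 Myl10 UMIs ran from 23.5% in plate 4 to 87.5% in plate 2. The spread thus includes differences in depth and between plates. For all 7 genes 86.5% to 98.7% of the bone marrow molecules came from cells that held at least 10, and 24 to 73 other cells held a single one. In AGM the share from such cells was 92.8% for Nupr1, 85.2% for Alcam, 81.8% for Cngb1 and 74.6% for Sult1a1. The share over all genes was not computed, so nothing particular to these genes is read from it. Of 423 bone marrow cells 65 had no Myl10 UMI, 33 had 1, 65 had 2 to 9, 160 had 10 to 99 and 100 had 100 or more, up to 327 in a cell. The 260 cells with at least 10 held 98.7% of the Myl10 UMIs. For Sdsl, 156 cells had none, 73 had 1, 66 had 2 to 9, 116 had 10 to 99 and 12 had 100 or more. The 28 Sult1a1 cells with at least 10 UMIs, 6.62% of the bone marrow cells, held 93.3% of its UMIs, and the corresponding 18 Alcam cells, 4.26%, held 86.5%.

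**Figure D2:**
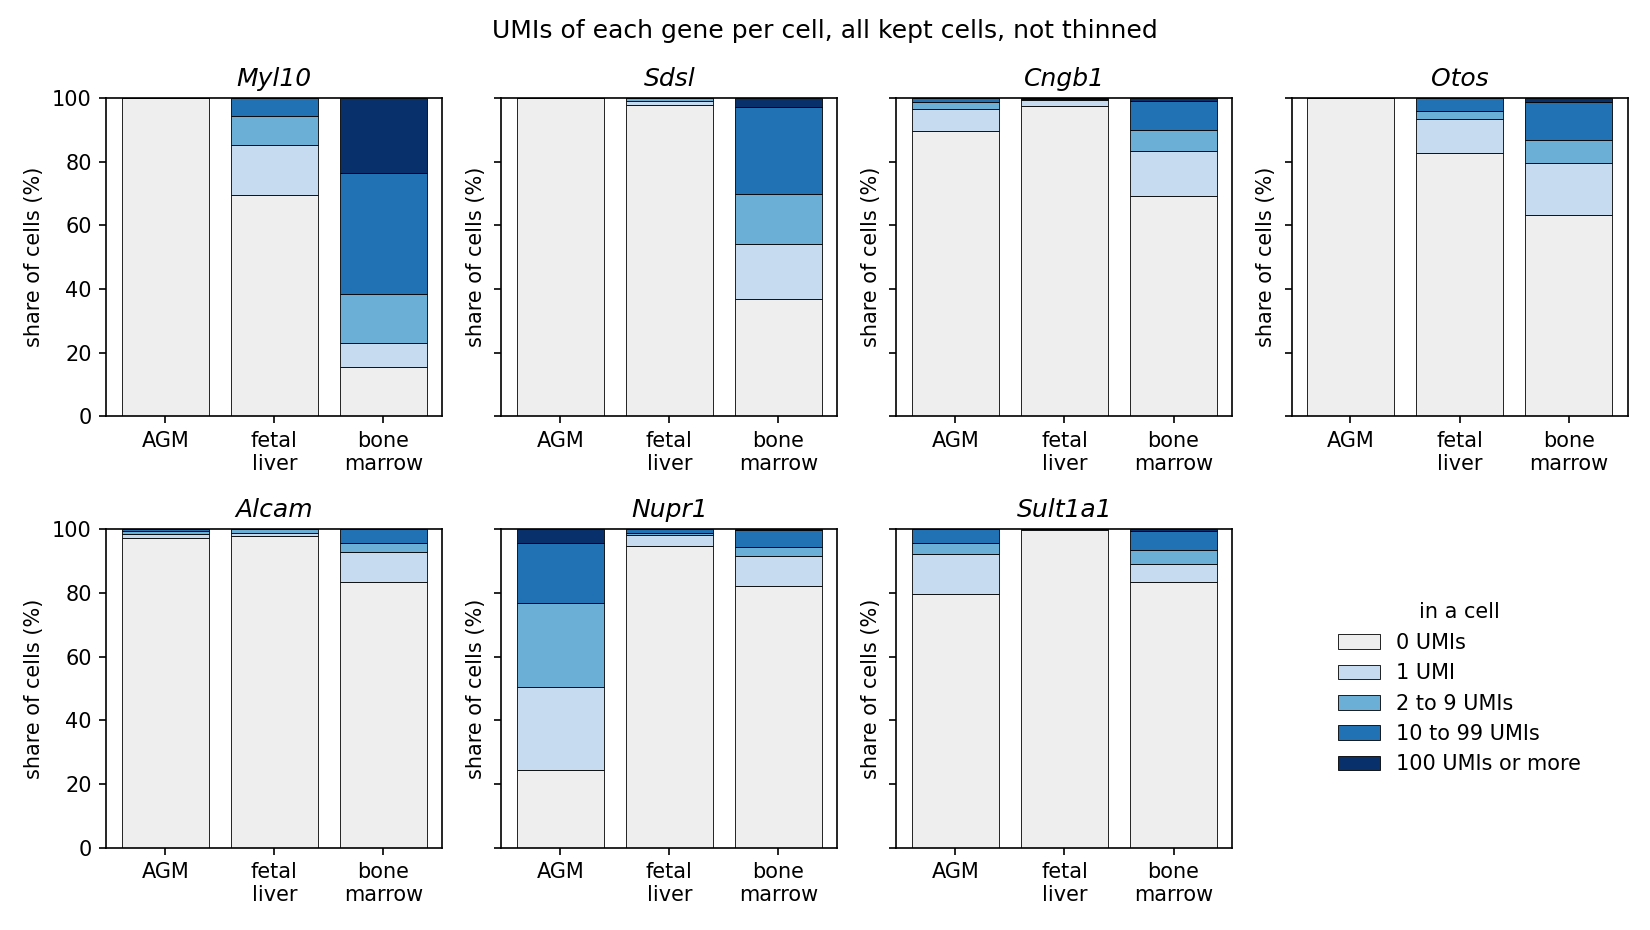
Share of the kept cells of each tissue (%, 143 AGM, 454 fetal liver and 423 bone marrow cells) by the number of UMIs of a gene in the cell, without thinning. In bone marrow 61.5% of cells held at least 10 Myl10 UMIs and 30.3% at least 10 Sdsl UMIs, while Nupr1 was found in more AGM cells (75.5%) than bone marrow cells (18.0%).

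To compare shares of cells at one number of UMIs, each cell was thinned to 20000, which left out 31 bone marrow, 35 fetal liver and 2 AGM cells as too shallow. Thinned cells still differed in genes detected: bone marrow cells with Myl10 had a median of 1666 in plate 1 and of 1888 to 2056 in the other 4 plates. Those without it had medians of 1743.5, 1311, 1632, 1837 and 2105 in plates 1 to 5. Myl10 was then found in 308 of 392 bone marrow cells (78.6%), 82 of 419 fetal liver cells (19.6%) and 0 of 141 AGM cells. Over the 5 plates of a tissue its share was 76.5% ± 22.1 (SD) in bone marrow and 20.2% ± 7.97 (SD) in fetal liver. Without thinning the shares were 84.6%, 30.6% and 0 of 143, which allows up to 2.10% of cells with a UMI. This limit covers counting error only, in cells of 1 code, and says nothing of how many cells express the gene. The AGM cells were the deepest (median 159228 UMIs against 59558 in bone marrow and 54303 in fetal liver) and held no UMI of Myl10, Sdsl or Otos. The wells left out as empty or poor held at most 3 Myl10 UMIs per plate.

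In fetal liver 139 of 454 cells held Myl10, and 51.8% of those had 1 UMI. Of those cells 26 held at least 10 and accounted for 70.0% of its molecules, with 68 in the top cell. Most of the fetal liver level thus came from few cells. For Otos 18 fetal liver cells with at least 10 UMIs held 81.5% of its molecules.

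Sdsl was found after thinning in 192 bone marrow cells (49.0%; 48.3% ± 7.74, SD over 5 plates) and in 4 of 419 fetal liver cells (0.955%), all in plate 3. The other 5 genes were found in a minority of bone marrow cells: Otos in 24.0%, Cngb1 in 19.1%, Sult1a1 in 11.7%, Nupr1 in 10.97% and Alcam in 8.93%. Their fetal liver shares were 9.55%, 0.955%, 0.239%, 2.15% and 0.955%. In AGM, Nupr1 was found in 31.2% of thinned cells, Sult1a1 in 6.38% and Cngb1 and Alcam in 1.42% each.

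A bone marrow cell held 2.02 of the 7 genes on average after thinning. Of 392 cells 22 held none, 106 held 1, 141 held 2, 91 held 3, 28 held 4 and 4 held 5. Fetal liver cells held 0.344 and AGM cells 0.404 on average, and no cell of either held more than 2. Without thinning, 2 bone marrow cells held all 7, and the averages were 2.66, 0.604 and 1.09.

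**Figure D3:**
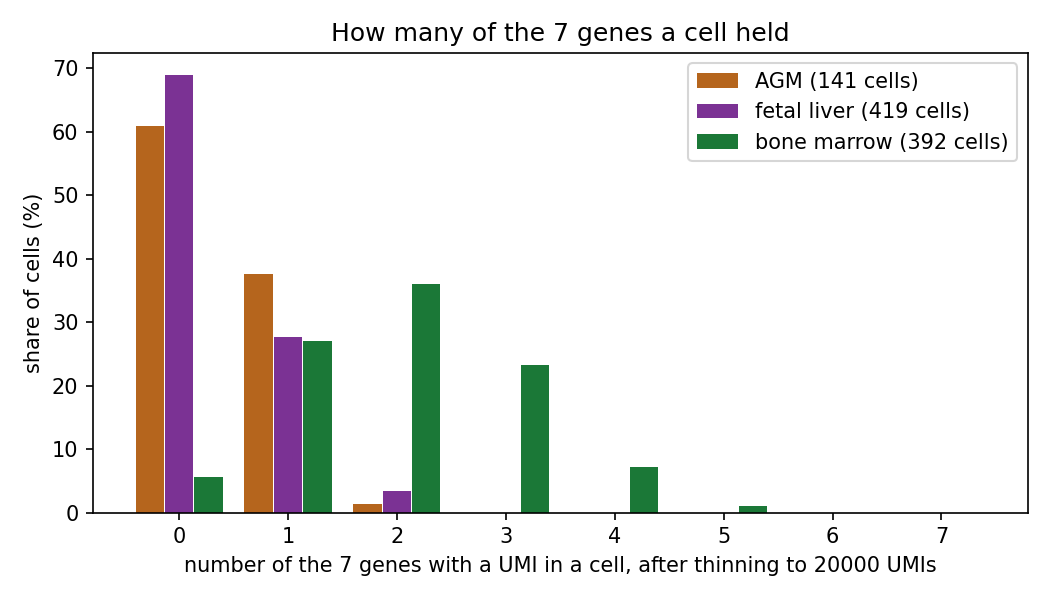
Share of cells (%) by how many of the 7 genes had a UMI in the cell, after each cell was thinned to 20000 UMIs. Bone marrow cells peak at 2 genes (36.0% of 392 cells), while 69.0% of fetal liver and 61.0% of AGM cells held none.

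Within bone marrow, pairs of the genes were found together about as often as their separate shares give. Myl10 and Sdsl were found together in 161 cells, where their shares in each plate multiply to 155.7 cells, a ratio of 1.03 ± 0.079 (SD over 5 plates). By plate the cells with both numbered 45, 48, 37, 18 and 13, against 42.6, 47.9, 36.8, 15.3 and 13.2 from the shares. Plates 1 and 4 lay furthest above, and plate 5 was just below. Where at least 10 UMIs of each gene were asked for, 95 cells held both against 92.2, a ratio of 1.03. The ratio has little room upwards, since Myl10 was in most cells. The odds of Sdsl were 1.52 times as high in cells with Myl10 as in those without it, pooled over the plates. This was 1.13 with cells thinned to 10000 UMIs, 1.18 with at least 2 UMIs, 1.30 without thinning and 1.25 at 10 UMIs or more. Over cells the UMIs of Myl10 and Sdsl, centred within each plate, had a correlation of -0.03. No test was made on cells, which are not replicates.

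Of the 21 pairs 11 were found together more often and 10 less often than their shares give, with ratios from 0.547 to 1.28 and a median of 1.03. The outer values rest on few cells. Alcam with Sult1a1 was in 2 cells against 3.66, Otos with Nupr1 in 7 against 10.4, Alcam with Nupr1 in 6 against 4.70, and Cngb1 with Otos in 21 against 16.9. Nupr1 and Sult1a1, which lie 42003 bp apart on chromosome 7, were together in 5 cells against 4.63. Myl10 with Nupr1 was in 34 cells against 31.8, but in 23 against 25.3 when cells were thinned to 10000 UMIs and in 14 against 14.5 when at least 2 UMIs were asked for. Myl10 with Sult1a1 was in 37 against 39.7, and in 33 against 34.4 at 10000 UMIs. Without thinning 17 pairs were above 1, with a median of 1.05. Cells of a plate then differ in depth, which all genes share, and its part in this was not tested.

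**Figure D4:**
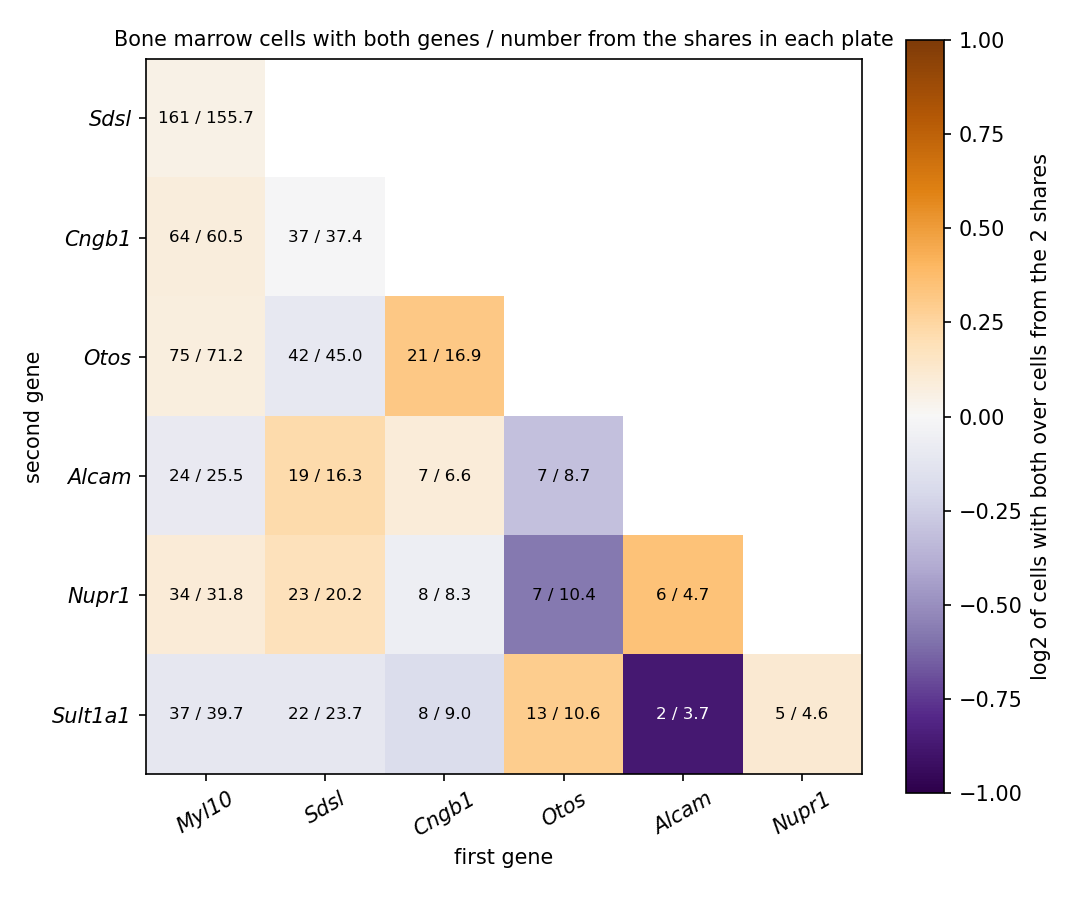
Bone marrow cells that held both genes of a pair after thinning, over the number that follows from the 2 shares within each plate; the colour is the log2 ratio. Most of the 21 pairs lie near 0, as Myl10 with Sdsl (161 against 155.7), and the strongest colours belong to pairs of rare genes such as Alcam with Sult1a1 (2 against 3.66).

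The rule did not use the difference between the 2 bone marrow codes, so this could be tested over the plates. Myl10 was the 1 gene of the 7 that passed. It was at 837, 1038 and 910.4 CPM in plates 1 to 3 and at 279.7 and 215.4 CPM in plates 4 and 5, a log2 difference of -1.89 ± 0.18 or a level 3.71-fold lower (edgeR quasi-likelihood test, adjusted p = 0.00306). Among 11695 genes 86 were called (0.735%), 69 of them higher (0.59%) and 17 lower in plates 4 and 5 (0.145%), with a median log2 difference of -0.03. The share of thinned cells with Myl10 was 87.0%, 95.7% and 94.4% in plates 1 to 3 and 54.5% and 50.7% in plates 4 and 5. Cells that held it also held fewer molecules, a median of 80, 71 and 83 UMIs in plates 1 to 3 and of 6 and 10 in plates 4 and 5, where cells were shallower (29964 and 38944 against 68299 to 92658 UMIs, medians before thinning).

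The edgeR call of Myl10 was lost when plate 1 or plate 2 was left out. Its log2 difference was then -1.96 (adjusted p = 0.133) without plate 1 and -1.81 (adjusted p = 0.0962) without plate 2. The adjusted p was 0.0450, 0.00653 and 0.00980 without plates 3, 4 and 5, by edgeR. By DESeq2 the highest of these 5 values was 2.92e-20, without plate 5. With cells that hold the gene counted instead of UMIs, the log2 difference was -0.48 (edgeR, adjusted p = 0.323). The 2 codes differed in more than their plates. The female-specific RNA Xist had 1100 UMIs in plates 1 to 3 and 0 in plates 4 and 5, and Y-linked genes had 4 and 705. The macrophage list was at 36.5 to 103.4 CPM in plates 1 to 3 and at most 19.97 in plates 4 and 5. The erythroid list was at 280.4 to 394.0 and 176.3 to 224.9 CPM, and the stroma list at 2.98 to 13.0 and 0.614 to 2.29. The stem cell list went the other way, at 2486 to 2804 and 2816 to 3055 CPM. The other lists of cell types overlapped. No tested macrophage, erythroid or stroma list gene was called, and 25.0% of all genes tested did not overlap between the codes. The part of these differences in the result was not tested. Sex, animal, sort and library batch cannot be told apart from the code.

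The other 6 genes did not pass between the codes (edgeR, adjusted p from 0.222 to 0.985). Sult1a1 was at 52.8 CPM under the first code and 14.3 under the second (log2 difference -1.86 ± 0.55, adjusted p = 0.293), and Sdsl at 228.3 and 128.5 (-0.81 ± 0.22, adjusted p = 0.222). For both, plates 4 and 5 lay below plates 1 to 3, as for Cngb1 (86.0 and 46.2 CPM, -0.79 ± 0.38, adjusted p = 0.675). Nupr1 went the other way, at 20.3 and 75.6 CPM (1.76 ± 0.79, adjusted p = 0.650). Otos (96.6 and 125.3 CPM) and Alcam (18.8 and 38.5) overlapped. Plates of the 2 codes did not overlap for 5 of the 7 genes, against 25.0% of all genes tested. DESeq2, an alternative, also called Sdsl (adjusted p = 0.000597) and Sult1a1 (adjusted p = 0.00563).

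**Figure D5:**
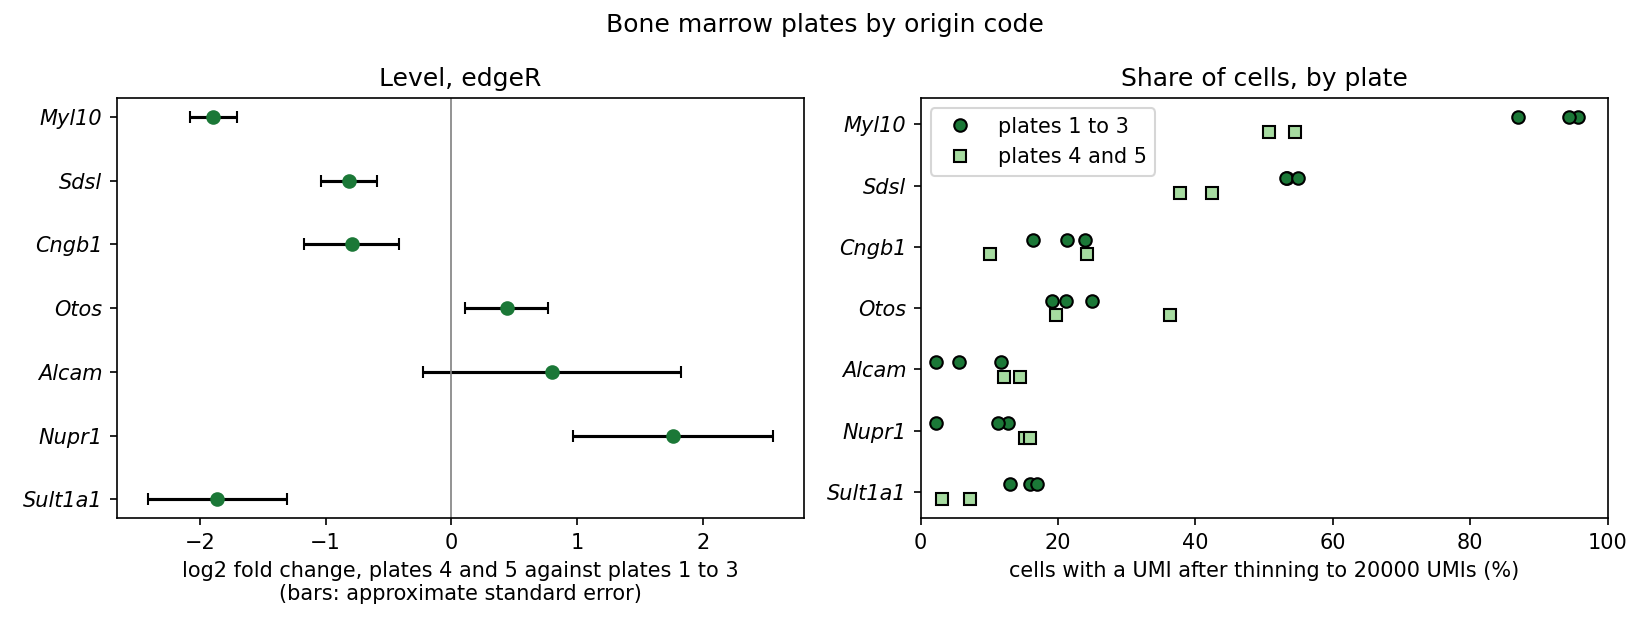
Left, log2 fold change of each gene in bone marrow plates 4 and 5 against plates 1 to 3 with its approximate standard error (edgeR); right, share of thinned cells with a UMI (%) in each bone marrow plate. Myl10, at -1.89, is the 1 gene that passed the test, and its shares of 87.0% to 95.7% and of 50.7% and 54.5% are far apart.

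Families and pathways of the 7 genes were followed to see whether related genes shared the pattern. Their p-values are from edgeR quasi-likelihood tests, adjusted over all genes tested. The myosin list held light chains of several kinds, heavy chains and their regulators. Of its 17 tested genes 1 was higher and 0 lower in bone marrow than in fetal liver, where 4.73% of all genes were called. It was Rock1, a kinase that raises light chain phosphorylation (log2 difference 0.98 ± 0.27, adjusted p = 0.0399), a call lost in 10 of 15 alternatives (adjusted p up to 0.261). The list's median was 0.39 against 0.00 over all genes. Against AGM, where 8.92% of all genes were called, Myl12b, a light chain of non-muscle myosin, was higher (1.28 ± 0.28, adjusted p = 0.00525). Myl9, the smooth muscle light chain, and Myh10, a non-muscle heavy chain, were lower. Myl9 had 1 UMI in bone marrow and 1730 in AGM, a ratio of 1915 with a counting interval of 343.2 to 75675, and was not called by DESeq2. Against AGM DESeq2 called Myl6b, Myl12b and Myh10. The list's median against AGM was 0.28, and 0.04 over all genes. Myl10, of the same family, had 24705 UMIs in bone marrow and 0 in AGM.

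Sds itself had no row in any plate, and no tested gene of serine and threonine metabolism was called higher in bone marrow by edgeR. Of 13 tested, 2 were lower than in fetal liver, as were 2.06% of all genes: Phgdh, the first enzyme of serine synthesis (log2 difference -0.74 ± 0.20, adjusted p = 0.0387), and Gcat, which acts in threonine breakdown (-1.15 ± 0.29, adjusted p = 0.0253). The calls were lost in 8 and 6 of 15 alternatives. DESeq2 called Amt as well as these genes. Against AGM 0 of 13 passed by edgeR or DESeq2, and 0 had an unadjusted p under 0.05. The list's medians were -0.43 and -0.31. Of the other subunits of this channel family, in bone marrow Cnga1 was at 0.0397 CPM, Cnga3 at 0.0199 and Cngb3 at 0, and Cnga2 had no row. Cnga4 had 13 UMIs, all in bone marrow plate 4 (5.95 CPM), and 0 in every other plate. These were too low to be tested. Of the list 0 of 6 tested genes passed in either comparison, by edgeR or DESeq2, with 1 at an unadjusted p under 0.05 in each and medians of -0.80 and -1.54. Of 10 tested sulfotransferase and sulfate activation genes 0 passed against fetal liver by edgeR, with 1 at an unadjusted p under 0.05 and 1, Sult5a1, called by DESeq2. Sult5a1 was lower against AGM (1 UMI against 312, adjusted p = 0.0366), a call lost in 9 of 15 alternatives (adjusted p up to 0.233). The list's medians were 0.42 and -0.54. Sult1c1, Sult1d1 and Sult1e1 had no row, and Sult1b1 and Sult1c2 no UMI in bone marrow.

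Of 14 adhesion genes tested beside Alcam, 0 passed against fetal liver by edgeR, with 3 at an unadjusted p under 0.05 and 2, Bcam and Jam3, called by DESeq2. Against AGM, Pecam1 (-2.82 ± 0.41, adjusted p = 9.28e-05), Icam2 (-1.20 ± 0.26, adjusted p = 0.00469) and Esam (adjusted p = 0.0304), receptors of blood vessel and blood cells, were lower. The Esam call was lost in 4 and the Icam2 call in 1 of 15 alternatives. The list's medians were -0.03 and -1.01. The endothelial marker list, which holds Pecam1 itself, was at 1362 to 1646 CPM in AGM and 342.1 to 539.2 in bone marrow. Its part in these calls was not tested. Of 16 stress genes around Nupr1, Ddit4, an inhibitor of mTOR signalling, was higher than in fetal liver (2.49 ± 0.66, adjusted p = 0.0336). Against AGM, Trib3 (3.41 ± 0.80, adjusted p = 0.00872) and Ddit3 (1.79 ± 0.49, adjusted p = 0.0245), both targets of the ATF4 branch of the stress response, were higher. The cell cycle inhibitor Cdkn1a was lower (-3.23 ± 0.68, adjusted p = 0.00340). The Ddit4 call was lost in 6, the Ddit3 call in 5 and the Trib3 call in 2 of 15 alternatives. The medians were 0.30 and 0.42. Nupr1 itself averaged 43.3 ± 33.1 CPM (SD, n = 5) in bone marrow and 72.7 ± 2.38 (SD, n = 2) in AGM.

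The stem cell and cycling genes give the setting in which the 7 genes were high. Of 22 stem cell genes 3 were higher than in fetal liver, among them Ly6a (Sca-1; 1.14 ± 0.21, adjusted p = 0.00184), and 3 lower. Against AGM 6 were higher, with the smallest p for Ly6a (3.01 ± 0.30, adjusted p = 5.09e-07) and the largest difference for Slamf1 (5.18 ± 0.99, adjusted p = 0.00145), and 3 lower, with the smallest p for Vwf (-4.01 ± 0.49, adjusted p = 9.19e-06). The shares of all genes called were 2.68% higher and 2.06% lower against fetal liver, and 5.29% higher and 3.63% lower against AGM. Of 15 cycling genes 8 were lower than in fetal liver and 11 lower than in AGM, with medians of -0.91 and -1.59, and no call in the other direction. The stem cell medians were -0.20 and 0.54. Ccnb1, a mitotic cyclin, was lower in both (-2.58 ± 0.38, adjusted p = 0.000224, and -3.42 ± 0.43, adjusted p = 1.49e-05). These list calls lean on fetal liver plate 4: without it 2 of 18 calls against fetal liver and 8 of 29 against AGM were left in number.

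Over the 12 plates the genes whose levels ran most like those of Myl10 and Sdsl were not among the 7. Correlations of log2(CPM + 1) were ranked over 8147 genes with at least 10 CPM in bone marrow, as a description, since plates of a tissue share origin and depth. The genes most like Myl10 were Pim1, a serine and threonine kinase downstream of cytokine receptors (r = 0.99), H2-DMa, a chaperone of MHC class II peptide loading (0.98), Gpr171 (0.98), Lhcgr, the receptor of luteinizing hormone (0.98), and Sqor, a sulfide oxidizing enzyme of mitochondria (0.97). Like Myl10 they had the order bone marrow, fetal liver, AGM. H2-DMa averaged 289.0, 33.3 and 3.77 CPM in these tissues, and Lhcgr 48.6, 11.3 and 0.301 CPM.

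The genes most like Sdsl were H2-Aa (0.99) and H2-Eb1 (0.98), the chains of MHC class II molecules, then the tetraspanin Cd63 (0.98), the chromatin remodeller Smarca2 (0.97) and Clec2d (0.97). H2-Aa averaged 122.6 CPM in bone marrow, 0.773 in fetal liver and 0.0518 in AGM. Myl10 and Sdsl had r = 0.86 with each other, which put Sdsl at rank 181 for Myl10 and Myl10 at rank 122 for Sdsl. Otos was at rank 48 for Myl10 (0.93) and Cngb1 at rank 74 for Sdsl (0.89). Nupr1 was least like Myl10 of the 7, at -0.10.

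Over single bone marrow cells correlations were low. Among 5396 genes found in at least 10% of 392 thinned cells, the highest correlation with Myl10, after centring within plates, was 0.20 for Lst1. Nfix (0.18), Slc25a27 (0.16), Mif (0.16) and Guca1a (0.16) came next, while the lowest 5 values were at -0.17 or below. For Sdsl the highest were Srsf2 (0.21), Hjurp (0.21), Capn15 (0.19), Iqcc (0.19) and Rpa1 (0.19), and the lowest 5 were at -0.19 or below. Weak correlations in sparse counts are no finding. Cells with Myl10 had a median of 33253 UMIs and those without it 32094 in plate 4, and 40085 and 44171 in plate 5. In plates 2 and 3, where 4 cells each lacked it, cells with Myl10 were deeper (68922 and 88520 UMIs against 52606 and 63468).

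Genes beside the 7 in the genome mostly did not share their pattern. The exception was Cux1, a homeobox factor 125655 bp from Myl10 on the opposite strand. Its mean was 156.8 ± 63.1 CPM (SD, 5 plates) in bone marrow, 58.0 ± 15.3 over the fetal liver plates and 72.9 ± 10.3 over the AGM plates. It was higher in bone marrow than in fetal liver (1.45 ± 0.30, edgeR, adjusted p = 0.00581) and did not pass against AGM (1.10 ± 0.38, edgeR, adjusted p = 0.0775). On the other side of Myl10, Col26a1 was at 0.0462 CPM in bone marrow. Sds, 3715 bp from Sdsl, had no row, and Lhx5 on its other side no UMI in bone marrow. Cops9, a subunit of the COP9 signalosome 2232 bp from Otos, was at 553.7 ± 69.6 CPM (SD, 5 plates) in bone marrow, 575.5 ± 74.9 over the fetal liver plates and 481.7 ± 15.4 over the AGM plates.

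Sgf29, a subunit of chromatin modifying complexes, lies between Nupr1 and Sult1a1 on the other strand, and its end overlaps that of Sult1a1. Its mean was 113.9 ± 32.1 CPM (SD, 5 plates) in bone marrow, 99.6 ± 10.2 over the fetal liver plates and 117.1 ± 3.80 over the AGM plates. It passed in neither comparison (edgeR, adjusted p = 0.795 and 0.894). Whether strand was used in counting is not given in the sources used here. Kifc3, Tepp, Gpc1 and Zpld1, neighbours of Cngb1, Otos and Alcam, were at 0.309, 0.184, 0.350 and 0.0193 CPM in bone marrow, and Tepp, Gpc1 and Zpld1 were too low to be tested. Cblb, Il27 and Slx1b were at 7.48, 1.92 and 9.97 CPM. Of the tested ones (Kifc3, Cblb, Il27 and Slx1b) none was called in either comparison by edgeR.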

How the data were processed

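The authors deposited 1 table of UMI counts per gene symbol and well for each of 12 plates, without normalization. The submitters' processing notes list mm10 as the build and featureCounts, SAMtools and UMI-tools as tools. The sources used here give neither the versions nor the annotation or strand setting, so overlapping and near-identical genes may share reads. The 7 genes and all lists were chosen with earlier results of these data known.

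Of 1152 wells, 1020 were kept as cells (at least 1000 genes, at least 3000 UMIs, under 20% mitochondrial UMIs) and 132 left out. All 96 well barcodes recur in all 12 plates, being well positions, so plates were never joined by barcode. No doublet caller was run on singly sorted cells, and cells were not clustered. Counts of kept cells were summed per plate, or per origin code for the tissue fits (1 AGM, 2 fetal liver, 2 bone marrow libraries; AGM, with 1, was assumed to vary like the others). Tests were edgeR 4.0.16 quasi-likelihood tests (R 4.3.3; TMM, filterByExpr, Benjamini-Hochberg adjustment over all tested genes, called under 0.05). The error of a log2 difference is that difference over the square root of F, which approximates a standard error. The bone marrow fit left 3 residual degrees of freedom (BCV 0.795), and the tissue fit left 2 (BCV 0.619). The code was tested on simulated data set to vary less between libraries than these data. That run checked the code only and does not show how well the tests work here. Thinning drew 20000 UMIs per cell without replacement. Python 3.11.15, numpy 2.4.6 and scipy 1.17.1 gave the cell values.

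Genes named are the 7; list genes called, up to 4 per list by adjusted p, or the most abundant; the 5 genes most correlated with Myl10 and with Sdsl over plates and over cells; and overlapping or nearest protein-coding genes. A few list genes are not reported here. Channel, sulfotransferase and inner ear genes at or near 0 were named after their values were seen. Alternatives were DESeq2 1.42.0, other size factors, no filter, other cell filters, other thinning and leaving out each plate.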

Additional observations from a re-analysis of the deposited data

Results flagged for a closer look

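Of 14 groups of 5 plates (7 genes in fetal liver and in bone marrow), 2 had 1 plate far from the other 4. In both the other 4 plates were at 0, so any plate above 0 stands apart, and the usual rate of about 1 chance mark in 20 groups does not apply. Sdsl in fetal liver was at 3.56 CPM in plate 3 (17 UMIs in 10 cells). Sult1a1 in fetal liver was at 0.118 CPM in plate 4, which is 1 UMI in 1 cell.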

How the results depend on the processing

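The levels of the 7 genes in bone marrow moved by less than the spread between plates in all 28 pairs of a gene and a setting that keeps all plates (plain or DESeq2 size factors, at least 2000 genes per cell, all wells). Leaving out 1 of 5 plates cannot move a mean by that much. The ratio for Myl10 with Sdsl stayed between 1.01 and 1.05. Between the bone marrow codes 86 genes were called, 526 by DESeq2, 215 without the filter on low counts, 12 with cells counted, and 0 to 92 without 1 plate by edgeR (DESeq2 534 to 602). The 0 came without plate 1 or 2, where 811 and 863 genes had an unadjusted p under 0.05. Calls higher and lower in plates 4 and 5 split as 69 and 17, 239 and 287 by DESeq2, and 115 and 100 without the filter. Myl10 was called by DESeq2 (adjusted p = 6.71e-32) and without the filter (3.19e-19). With cells counted, Otos changed sign at -0.014 (adjusted p = 0.994). List genes called against fetal liver numbered 18, and 2 to 19 without 1 plate; against AGM 29, and 8 to 33. Of 47 list calls 9 passed in all 15 alternatives, and 38 were lost in at least 1. Pairs found together more often than from their shares numbered 11, and 17 without thinning. The mean share of cells with Sdsl was 48.3%, 63.0% without thinning, 34.8% with at least 2 UMIs and 29.8% with at least 10 UMIs and no thinning, a setting chosen after seeing the data. No paired analysis was possible because plate numbers follow only the order of deposit and link no plates across groups. The spread between codes rests on 2 codes each for fetal liver and bone marrow and 1 for AGM, and at 20000 UMIs a gene with few molecules in a cell is often missed.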
